A study of Mus musculus with 44 samples.

Results

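The Hox clusters were described as the 95 accessible regions (peaks) that lay inside 4 windows of the mouse genome, out of 152393 peaks in the whole table. The windows were chr6:52150000-52270000 for *Hoxa*, chr11:96190000-96370000 for *Hoxb*, chr15:102910000-103045000 for *Hoxc* and chr2:74660000-74775000 for *Hoxd* (mm10), and they held 19, 33, 24 and 19 peaks. Membership was set by position alone and used no measured value. Within each window the peaks are numbered in chromosome order, so that C2 is the second peak of the *Hoxc* window. Accessibility was measured by ATAC-seq, in which the Tn5 transposase inserts into open DNA, and is given as rlog, a regularized log2 of the insertions in a 200 bp window. A difference of 1 therefore stands for a doubling, and the rlog shrinks differences at weak peaks.

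The 44 libraries were pools of 20 to 40 preimplantation embryos labelled B6C3F1, from superovulated females. *Pou5f1* (Oct4) Ctrl and KO embryos were taken as morulae at E2.75 and late morulae at E3.25, with 3 libraries per group, and as inner cell mass (ICM), early at E3.75 or late at E4.5, with 4 per group. *Sox2* Ctrl and KO embryos were taken as early and late ICM, with 4 per group. In all of them the mother's copy of the gene had been removed in the oocyte by *Zp3*-Cre acting on a floxed allele. Ctrl embryos received an intact copy from the father, so Ctrl is a maternal KO and not wildtype. KO embryos received a null copy from the father, marked by mKO2 for *Pou5f1* or EGFP for *Sox2*, and were sorted by that fluorescence. All ICMs, and none of the morulae, came from embryos grown from E2.5 in 1 μM of the MEK inhibitor PD0325901 and were isolated by immunosurgery, so stage cannot be told apart from these treatments between late morula and ICM. Whether libraries of a group came from separate days is not given in the sources used here, so the p-values measure the spread between these libraries.

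Hox genes encode homeodomain transcription factors that give cells their position along the head-to-tail axis. In mammals they sit in 4 clusters whose gene order matches the order of their expression domains, with the low-numbered genes anterior and early and the high-numbered genes posterior and late. The clusters are a textbook case of Polycomb silencing, in which CpG-rich promoters carry H3K27me3 and lie in compact chromatin. Whether they do so at the stages used here was not examined. Histone marks and transcripts were not analysed here, so the label of silent Polycomb-type loci could be checked only against accessibility and sequence.

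The sequences of 7 Hox peaks are shown because the results below turn on them. They are written along the plus strand of GRCm38, the build of mm10. Capitals mark CG dinucleotides, except in D15, which has none and in which capitals mark a 15-base match, read on the minus strand and with 3 mismatches, to the composite OCT-SOX word. All 3 mismatches fall in the SOX part of that word, and only its OCT part is matched in full. C1 (chr15:102920807-102921006) is centred 197 bp upstream of the start of *Hoxc13*. C2 (chr15:102931700-102931899) and C3 (chr15:102935015-102935214) are intergenic and lie 4958 bp and 1643 bp upstream of *Hoxc12*. B20 (chr11:96271795-96271994) is in a coding exon of *Hoxb9*. D9 (chr2:74715060-74715259) and D11 (chr2:74721176-74721375) lie in introns of *Hoxd3* and *Hoxd4* transcripts, and D15 (chr2:74731110-74731309) lies in a *Hoxd3* intron, 1704 bp upstream of an annotated start of *Hoxd3*.
C1: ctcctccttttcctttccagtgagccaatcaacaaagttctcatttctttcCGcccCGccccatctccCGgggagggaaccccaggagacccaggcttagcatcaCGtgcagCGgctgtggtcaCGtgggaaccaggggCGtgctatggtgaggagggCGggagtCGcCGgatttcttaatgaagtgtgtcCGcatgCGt
C2: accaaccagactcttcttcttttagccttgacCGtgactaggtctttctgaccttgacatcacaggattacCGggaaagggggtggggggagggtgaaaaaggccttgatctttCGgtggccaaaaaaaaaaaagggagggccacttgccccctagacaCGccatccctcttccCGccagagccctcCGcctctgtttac
C3: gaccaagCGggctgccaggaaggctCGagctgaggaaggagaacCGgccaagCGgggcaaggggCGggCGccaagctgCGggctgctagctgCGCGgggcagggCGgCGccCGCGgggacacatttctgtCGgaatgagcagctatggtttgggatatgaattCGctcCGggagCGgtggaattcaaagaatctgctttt
B20: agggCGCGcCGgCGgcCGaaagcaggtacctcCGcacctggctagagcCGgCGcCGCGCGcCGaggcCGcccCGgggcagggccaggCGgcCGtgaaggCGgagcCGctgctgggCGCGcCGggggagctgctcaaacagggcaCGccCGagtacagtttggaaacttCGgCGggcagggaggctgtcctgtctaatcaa
D9: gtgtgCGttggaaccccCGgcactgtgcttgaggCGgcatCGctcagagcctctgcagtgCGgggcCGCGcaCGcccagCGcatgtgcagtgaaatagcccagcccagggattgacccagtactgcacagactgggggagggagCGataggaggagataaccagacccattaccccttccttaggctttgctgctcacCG
D11: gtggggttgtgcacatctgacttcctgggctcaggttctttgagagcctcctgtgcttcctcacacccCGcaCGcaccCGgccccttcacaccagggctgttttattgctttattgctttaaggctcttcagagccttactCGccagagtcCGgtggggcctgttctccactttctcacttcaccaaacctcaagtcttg
D15: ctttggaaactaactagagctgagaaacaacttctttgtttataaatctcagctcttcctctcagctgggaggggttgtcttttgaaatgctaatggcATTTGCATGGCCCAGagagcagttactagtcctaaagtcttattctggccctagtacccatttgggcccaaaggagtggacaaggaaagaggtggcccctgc

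The Hox peaks were richer in CpG than the table as a whole. Their median was 9 CG dinucleotides per 200 bp, against 2 over all peaks, and 43.2% of them held 10 or more CG, against 10.1%. Median GC content was 56.5% against 50%, and the ratio of observed to expected CpG was 0.573 against 0.197. Of the 95 peaks, 52 (54.7%) lay within 1 kb of an annotated start of any gene, against 19.5% of all peaks, and 12 (12.6%) lay within 100 bp, against 7.77%. B20, at the *Hoxb9* coding exon, held 25 CG and 73% GC, whereas the intergenic C2 held 6 CG and D15 held 0.

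Words of transcription factors were searched on both strands. The CTCF core, with at most 1 mismatch, was found in 3 Hox peaks, A17, C5 and C15 (3.16%, against 7.48% of all peaks). The OCT-SOX word, with at most 3 mismatches, was found in 2, C23 and D15 (2.11% against 3.44%). In D15 all 3 mismatches fall in the SOX part, so the letters there hold no intact composite site. The octamer word ATTTGCAT, searched after the D15 sequence had been read, was found in A15 and in D15, where it overlaps the OCT-SOX match (2.11% against 2.39%). CAATAAA, the word of the CDX factors, which are known inducers of the trunk Hox genes, was found in 7, including C4, D11 and D12 (7.37% against 3.58%). The GATA word AGATAA was found in 10 (10.53% against 17.5%) and the TEAD word GGAATG in 19 (20% against 18.9%). A match is only a match of letters.

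The accessibility of the clusters was low for their CpG content. The median of the 95 peak means was 2.27, against 2.44 for all peaks and 3.64 for all peaks with 10 or more CG. The 41 Hox peaks with 10 or more CG had a median of 2.67. Of the 95 peaks, 40 lay above the median of the table and 3 in its top 10%. A similar gap was seen at CpG-rich starts. The 8 Hox peaks within 100 bp of a start with 10 or more CG had a median of 2.94, against 3.98 for the other 8202 such peaks, and 6 of the 8 lay below the lower quartile (3.08) of those. The peaks at the starts of *Hoxd9* (D4, 1.96) and *Hoxa13* (A19, 2.06) were at percentiles 5.54 and 6.83 of CpG-rich start peaks. A1, in an exon of the noncoding *Hotairm1* and 42 bp from an annotated start, was the one above their median (4.28, percentile 59.1). Accessibility at CpG-rich Hox starts was thus low but not absent, and Polycomb occupancy was not tested.

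The open spots differed between clusters. In the *Hoxa* window the 2 highest peaks were A2 (4.91), in an intron of *Hotairm1*, and A1. Their group means stayed between 3.85 and 5.31 in all 12 groups. In the *Hoxb* window they were B20 (5.17), the highest of all 95, and B11 (4.15), in an exon of the long noncoding *Gm53* between *Hoxb13* and *Hoxb9*. In the *Hoxc* window they were C1 (4.59) and C3 (3.64), both at the posterior end. In the *Hoxd* window they were D10 (3.81) and D9 (3.52), side by side within *Hoxd3os1*, which is antisense to *Hoxd3* and *Hoxd4*, and no *Hoxd* peak reached the top 10% of the table. ATAC-seq reads carry no strand, so signal at overlapping sense and antisense genes cannot be assigned to either.

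By gene, 24 of the 38 listed Hox genes had a peak within 1 kb of one of their starts. Among these nearest peaks, the highest in each window besides B20 and C1 were A12 at the *Hoxa7* start (3.07) and A13 in an exon of *Hoxa9* (2.95), B33 in a coding exon of *Hoxb1* (3.71), C4 at the *Hoxc12* start (3.35), and D3 at *Hoxd10* (3.21) and D1 at *Hoxd11* (3.03). The lowest were A6 near a *Hoxa3* start (0.832), B27 at *Hoxb4* (2.87), C20 at *Hoxc4* (1.70) and D17 at *Hoxd3* (1.50). The other 14 genes had none within 1 kb, and they were *Hoxa2*, *Hoxa5*, *Hoxa6*, *Hoxb2*, *Hoxb3*, *Hoxb5*, *Hoxb6*, *Hoxb7*, *Hoxb8*, *Hoxc8*, *Hoxc9*, *Hoxc11*, *Hoxd12* and *Hoxd13*. The nearest peak to *Hoxd13*, the most posterior *Hoxd* gene, was D1 at 13811 bp.

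**Figure D1:**
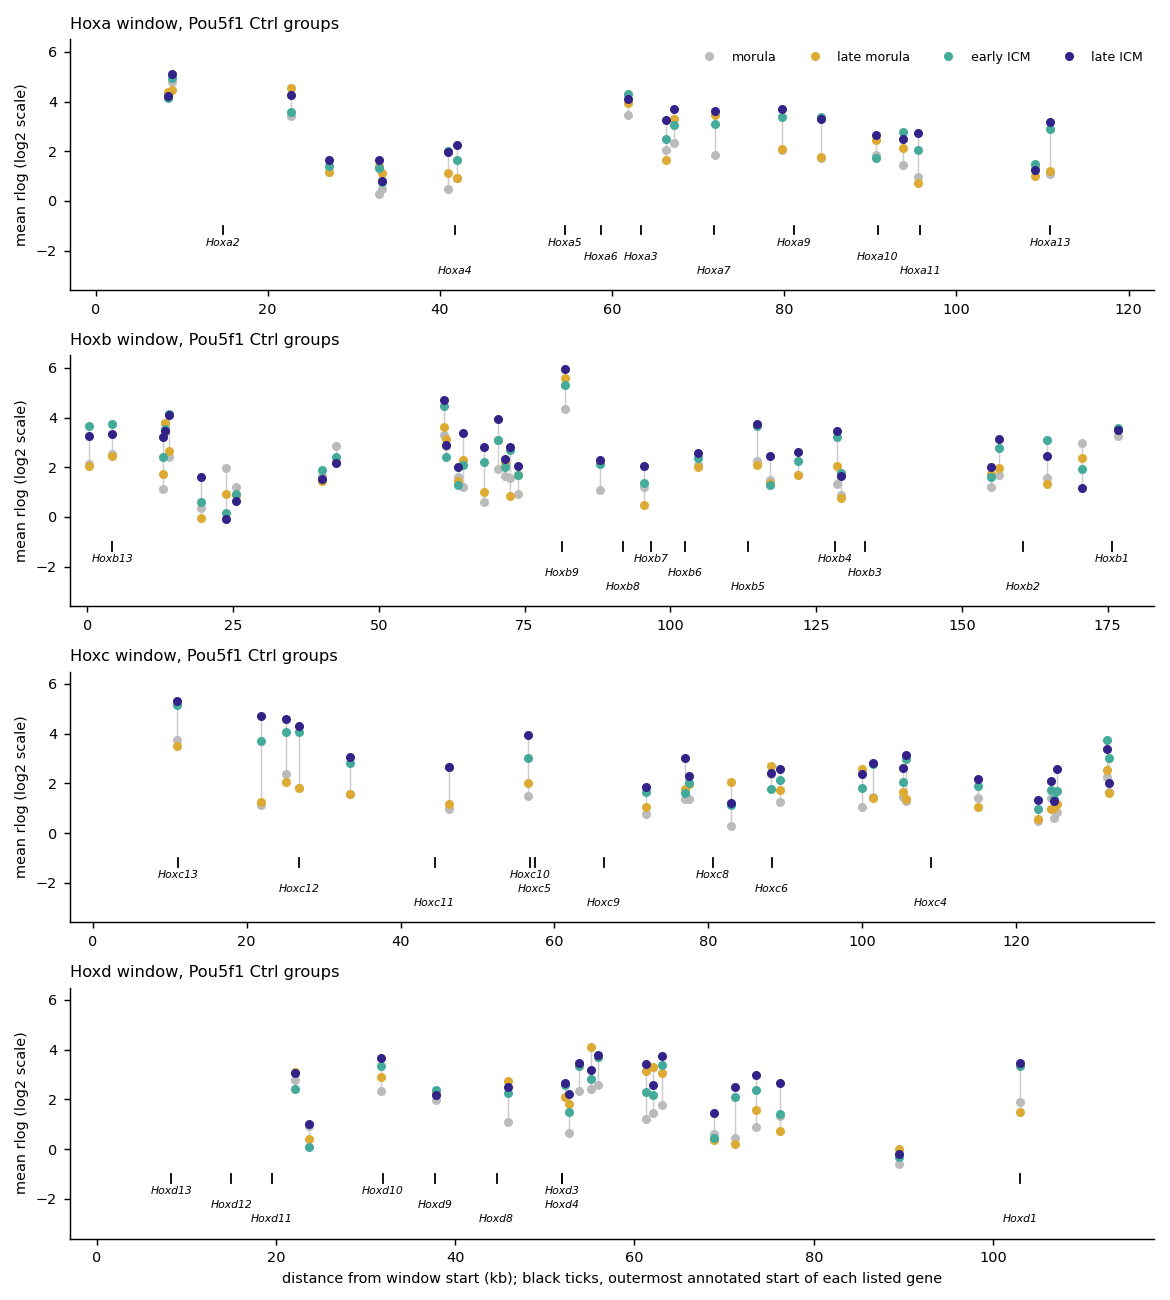
Mean rlog (log2 scale) of each Hox peak in the *Pou5f1* Ctrl groups, along the 4 windows in kb from the window start, with 1 point per stage and black ticks at the outermost annotated start of each listed gene. C1 to C6, left of 50 kb in the *Hoxc* window, sit 1.25 to 2.47 higher in early ICM than in late morula.

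Hox accessibility was higher in ICM than in morulae, while the median of the whole table hardly moved. The rlog is normalized between libraries, so the steady median of the whole table is in part set by that step. CpG-rich peaks in general were also higher, with library medians of 3.15 ± 0.283 (n = 3) in Ctrl morulae and 4.10 ± 0.193 (n = 4) in *Pou5f1* Ctrl late ICM over all peaks with 10 or more CG, against 1.96 ± 0.0539 and 3.13 ± 0.250 over such Hox peaks. The median over the 95 Hox peaks, taken in each library, was 1.50 ± 0.125 (SD, n = 3) in Ctrl morulae, 1.83 ± 0.208 (n = 3) in late morulae, 2.47 ± 0.214 (n = 4) in *Pou5f1* Ctrl early ICM and 2.84 ± 0.221 (n = 4) in late ICM. The medians of all peaks in these groups lay between 2.52 and 2.60. The 6 *Pou5f1* Ctrl morula libraries spanned 1.37 to 2.01 and the 8 *Pou5f1* Ctrl ICM libraries 2.17 to 3.06, without overlap. *Sox2* Ctrl ICMs were at 2.40 ± 0.348 (early) and 2.49 ± 0.0592 (late), and the lowest early library, at 1.96, lay below the highest late morula library. The Hox median lay below that of all peaks in all 12 morula libraries, KO included, and in 12 of the 32 ICM libraries.

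**Figure D2:**
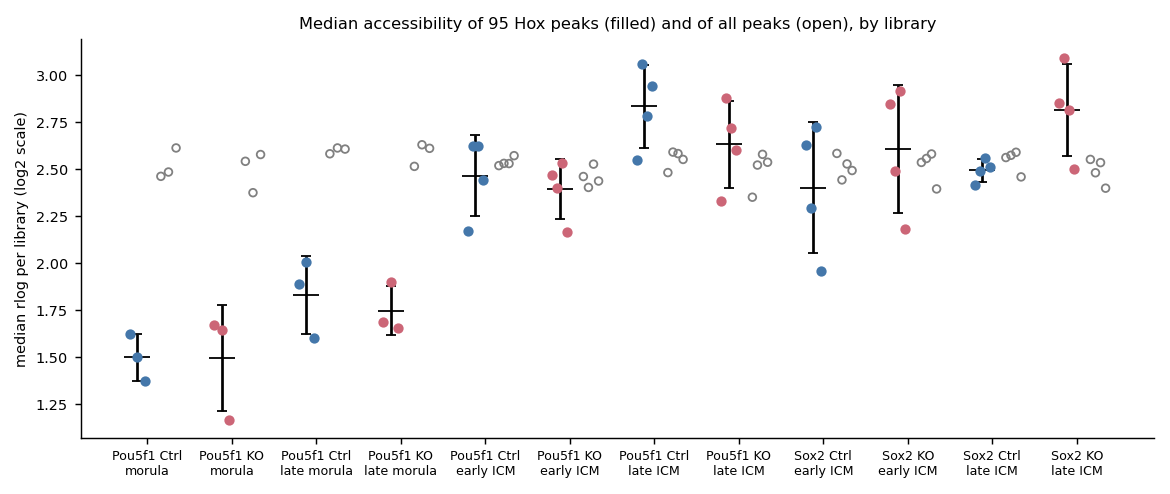
Median rlog (log2 scale) of the 95 Hox peaks in each library (filled, Ctrl blue and KO red) and of all peaks in the same library (open, grey), with bars at the group mean ± SD of the Hox medians. The 12 morula libraries sit between 1.17 and 2.01, below all-peak medians of 2.38 to 2.63.

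From morula to late morula, at E2.75 to E3.25, 8 Hox peaks rose and 0 fell in Ctrl embryos, where 3.65% of all peaks rose and 2.79% fell (limma, Benjamini-Hochberg adjusted p under 0.05). The median difference was 0.24 over Hox peaks, 0.08 over all peaks and 0.40 over all peaks with 10 or more CG. The Hox median was thus below that of CpG-rich peaks in general. The 8 peaks were 4 in *Hoxd* (D5, D9, D11, D12), 2 in *Hoxc* (C11, C14), B20 and A12.

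D9 was 1.69, 2.63 and 2.88 in the 3 Ctrl morula libraries and 4.01, 4.62 and 3.753 in the late morula libraries. It rose by 1.73 ± 0.44 (SE; limma, adjusted p = 0.00814), and the groups did not overlap. D11 was 1.44, 1.27 and 0.879 in morulae and 3.45, 3.83 and 2.21 in late morulae, a rise of 1.97 ± 0.51 (adjusted p = 0.00837 by limma), again without overlap. Every late morula library lay above every morula library at 19 Hox peaks and at 14.7% of all peaks. D9 lies 3230 bp downstream and D11 703 bp upstream of annotated starts of *Hoxd4*, an anterior gene of its cluster. B20 at *Hoxb9* was 4.04, 4.53 and 4.43 in morulae and 5.77, 5.82 and 5.25 in late morulae, a rise of 1.28 ± 0.34 (adjusted p = 0.0117 by limma). C11, in a UTR of the trunk gene *Hoxc8* (chr15:102992876-102993075), went from 0.0916 to 0.418 in morulae to 1.80 to 2.26 in late morulae (1.77 ± 0.51; adjusted p = 0.0185 by limma). All 8 calls were lost when late morula Ctrl replicate 2 was left out, and 3 to 5 held without any other single library.

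From late morula to early ICM, 24 Hox peaks rose and 1 fell, where 14.7% of all peaks rose and 15% fell. The 24 were 10 of 24 in *Hoxc*, 8 of 33 in *Hoxb*, 4 of 19 in *Hoxa* and 2 of 19 in *Hoxd*. The median difference was 0.42 over Hox peaks, −0.04 over all peaks and 0.25 over all peaks with 10 or more CG. It was 0.80 in *Hoxc*, 0.48 in *Hoxa*, 0.37 in *Hoxb* and −0.01 in *Hoxd*. With a single library left out, 17 to 23 peaks were called.

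The largest rises were all at the posterior end of *Hoxc*, around *Hoxc12* and *Hoxc13*, the most posterior genes of that cluster. C2 was 1.46, 1.46 and 0.817 in late morulae and 2.38, 4.10, 3.86 and 4.53 in early ICM, a rise of 2.47 ± 0.48 (limma, adjusted p = 3.12e-05). C4, at the *Hoxc12* start, was 1.61, 2.82 and 1.02 and then 3.60, 4.01, 4.496 and 4.11, a rise of 2.24 ± 0.44 (adjusted p = 4.46e-05 by limma). C3 was 2.37, 1.61 and 2.13 and then 2.97, 4.41, 4.17 and 4.79, a rise of 2.05 ± 0.41 (adjusted p = 5.07e-05 by limma). In each of the 3 peaks every early ICM library was above every late morula library, as at 22 Hox peaks in all and at 16.85% of all peaks. The 3 were picked for their small adjusted p, so this is no separate support. C1 at *Hoxc13* rose by 1.64 ± 0.36 (adjusted p = 0.000279 by limma), from 3.32, 3.38 and 3.82 to 5.09, 5.25, 4.44 and 5.80. C5, an intergenic peak 6728 bp downstream of the *Hoxc12* start, and C6, in a *Hoxc11* intron, rose by 1.25 ± 0.47 and 1.50 ± 0.47. Thus all 6 peaks of the first 50 kb of the window rose, a stretch singled out after its values were seen. The same stretch had moved by −0.33 to 0.19 between morula and late morula, with none called.

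Outside that stretch the rises were scattered. D15 went from 0.143, 0.286 and 0.234 in late morulae to 1.62, 2.26, 1.88 and 2.58 in early ICM (1.86 ± 0.45; adjusted p = 0.000802 by limma). D19, at the start of *Hoxd1*, the most anterior *Hoxd* gene, rose by 1.85 ± 0.47, and A19, at the start of *Hoxa13*, a limb and hindgut gene, by 1.69 ± 0.51. B2, at the start of *Hoxb13*, the most posterior *Hoxb* gene, rose by 1.30 ± 0.47, and B18, in *Gm53*, by 1.86 ± 0.46. Grouped by nearest gene, with the groups set after the calls were seen, 15 of 39 peaks nearest to paralog groups 9 to 13 and 9 of 56 nearest to groups 1 to 8 rose. D9 was the one peak that fell, by 1.31 ± 0.41 (adjusted p = 0.0114 by limma), from the late morula values given before to 1.70, 3.27, 3.38 and 2.94.

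Between early and late ICM few Hox peaks changed. In *Pou5f1* Ctrl embryos 0 rose and 0 fell by limma (0.259% of all peaks were called in either direction), although 73 of the 95 differences were positive and the median was 0.30, against 0.01 over all peaks. All peaks with 10 or more CG had a median of 0.19 and were positive in 71.1%, against 76.8% of Hox peaks. At an unadjusted p under 0.05, 13 Hox peaks rose and 1 fell, where 4.8% of all peaks rose and 5.29% fell. In *Sox2* Ctrl embryos 1 rose and 0 fell (0.474% and 0.121% of all peaks), with a median of 0.09. The 1 was C2, which went from 1.71, 1.23, 3.18 and 3.01 to 2.38, 4.10, 4.83 and 4.53 (1.68 ± 0.44; adjusted p = 0.0435 by limma). The groups overlapped, and the call was lost under the filter on low values, quantile normalization, a fit of only the libraries compared and the replicate block, and in 5 of the 8 fits that left out 1 library.

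**Figure D3:**
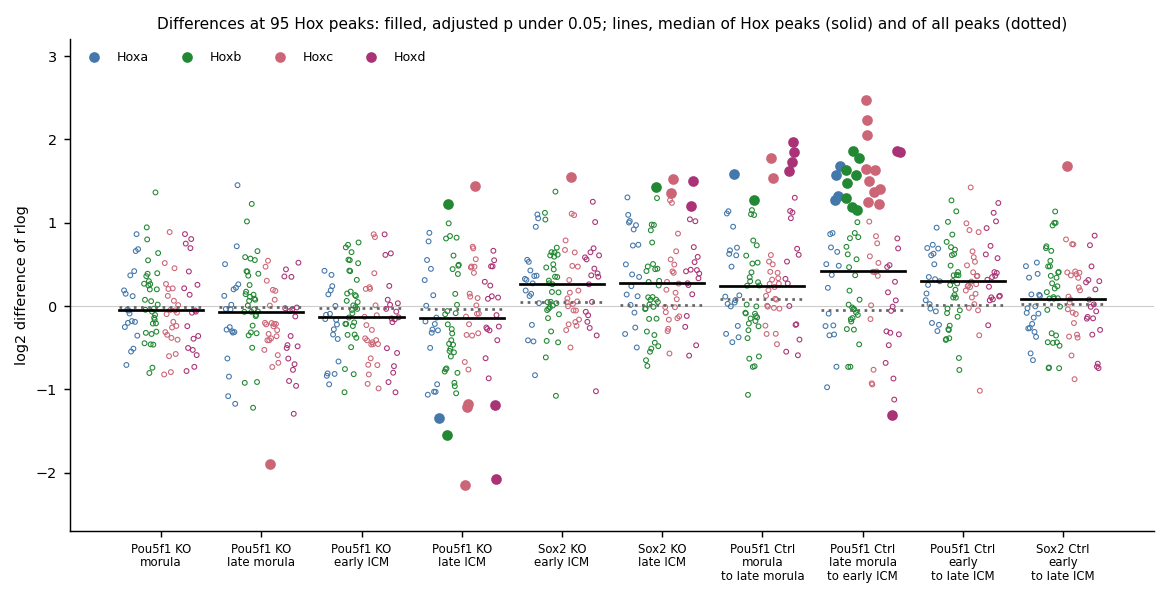
Log2 differences of rlog at the 95 Hox peaks in each comparison, coloured by cluster, with filled points at an adjusted p under 0.05 (limma), and the median of Hox peaks (solid) and of all peaks (dotted). The upper cloud from late morula to early ICM holds 24 called rises led by *Hoxc* at 2.47, and *Pou5f1*-KO in late ICM has 7 called decreases down to −2.15.

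The question asked of the knockouts was whether loss of Oct4 or Sox2, the factors of the pluripotent ICM, changed these loci. *Pou5f1*-KO had no called effect at Hox peaks in morulae, with 0 decreased and 0 increased (0.237% of all peaks were called in either direction by limma, and 2 Hox peaks decreased and 2 increased at an unadjusted p under 0.05, as did 4.63% and 3.61% of all peaks). The smallest p was at B27 in a UTR of *Hoxb4* (1.41, 1.25 and 1.32 in Ctrl, 2.55, 2.32 and 3.19 in KO, adjusted p = 0.264 by limma). In late morulae 1 decreased and 0 increased (0.539% and 0.108% of all peaks). It was C11 at *Hoxc8*. The same 3 Ctrl late morula libraries enter this decrease and the rise of C11 from morula to late morula, so the 2 are not independent. C11 was 1.80, 2.09 and 2.26 in Ctrl and 0.149, −0.309 and 0.603 in KO (−1.90 ± 0.51; adjusted p = 0.0447 by limma), without overlap. KO lay wholly below Ctrl at 6 Hox peaks and at 8.94% of all peaks. The call of C11 was lost when any of the 6 libraries was left out, with adjusted p from 0.0734 to 0.272.

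In early ICM *Pou5f1*-KO again gave 0 decreased and 0 increased Hox peaks, where 8.18% of all peaks were called in either direction (limma). At an unadjusted p under 0.05, 5 Hox peaks decreased and 2 increased, as did 11.7% and 8.68% of all peaks. The smallest p was at D15, with 1.62, 2.26, 1.88 and 2.58 in Ctrl and 2.14, 0.865, 0.741 and 0.450 in KO (−1.03 ± 0.42; adjusted p = 0.1135 by limma). KO replicate 1 lay within the Ctrl range, and without it 1 Hox peak was called.

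In late ICM *Pou5f1*-KO decreased 7 Hox peaks and increased 2, where 10.1% of all peaks decreased and 8.19% increased. The 7 decreases were 7.37% of the Hox peaks and the 2 increases 2.11%, so both shares were below those of the table. The 7 were C2, C5, C6, D14, D15, A19 and B6, and the 2 were B9 and C18. The median difference was −0.14 over Hox peaks, −0.04 over all peaks and −0.25 over all peaks with 10 or more CG.

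C2 was 4.78, 4.59, 4.70 and 4.78 in late ICM Ctrl and 2.74, 2.90, 2.56 and 2.03 in KO, a decrease of 2.15 on the log2 scale (SE 0.44; adjusted p = 0.000105 by limma). The lowest Ctrl library was well above the highest KO library. KO lay wholly below Ctrl at 6 Hox peaks and at 10.8% of all peaks. At C2, 2 of the 4 KO libraries lay within the range of the 12 morula and late morula libraries, 0.508 to 2.63, and 2 above it. The upper end of that range was 1 KO morula library. D15 was 2.55, 2.02, 3.05 and 2.30 in Ctrl and 0.508, 0.762, 0.0835 and 0.288 in KO (−2.07 ± 0.42; adjusted p = 7.44e-05 by limma). At D15, 3 of the KO libraries lay within the range of those 12 libraries, −0.231 to 0.600, and the one at 0.762 lay above it. Both calls held without any single library and in every alternative fit in which the peak was tested. B6, an intergenic peak 15161 bp downstream of the *Hoxb13* start, was 0.583, 2.27, 1.64 and 1.92 in Ctrl and 0.108, −0.0838, 0.272 and −0.0515 in KO (−1.54 ± 0.42; adjusted p = 0.00460 by limma), and it too held without any single library.

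The other 4 decreases were smaller. They ran from −1.17 at C6 to −1.34 at A19, with adjusted p from 0.0305 to 0.0462 (limma), and none held throughout. With 1 library left out, A19 and D14 were each called in 4 of 8 fits, C5 in 3 and C6 in 2. C5 and C6 were also lost after quantile normalization, and C6 when only the libraries compared were fitted. All 6 peaks of the posterior *Hoxc* stretch had negative differences, from −0.13 at C3 to −2.15 at C2, and 3 of them were called. C3 itself was 4.21, 4.84, 4.77 and 4.47 in Ctrl and 4.17, 4.80, 4.37 and 4.44 in KO, and it was not called, whereas its neighbour C2 was. The difference between the 2 peaks was not tested. Of peaks nearest to paralog groups 9 to 13, 6 of 39 had positive differences (median −0.41, 5 called down, 1 up). Of those nearest to groups 1 to 8, 34 of 56 did (median 0.11, 2 called down, 1 up). Over all peaks 47.9% were positive, and over all peaks with 10 or more CG 26.1%. The 2 groups were set after the calls were seen. In *Pou5f1*-KO morulae the split ran the other way, with 23 of 39 (groups 9 to 13) and 19 of 56 (groups 1 to 8) positive. It did so in late morulae too, with 23 of 39 and 15 of 56, and in early ICM 14 of 39 and 23 of 56 were positive.

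Both increases, and 6 of the 7 decreases, lay over 1 kb from any annotated start. C18, in a *Hoxc4* intron, was 3.16, 2.21, 1.28 and 2.02 in Ctrl and 3.67, 3.91, 3.29 and 3.59 in KO (1.45 ± 0.46; adjusted p = 0.01565 by limma). B9, between *Hoxb13* and *Gm53*, was 1.55, 1.55, 0.994 and 1.98 in Ctrl and 3.48, 2.57, 2.27 and 2.66 in KO (1.23 ± 0.45; adjusted p = 0.0408 by limma). In both the groups did not overlap, and both hold the GATA word. KO lay wholly above Ctrl at 5 Hox peaks and at 8.81% of all peaks. With 1 library left out, C18 was called in 7 of 8 fits and B9 in 2 of 8, with adjusted p up to 0.102 and 0.160 (limma).

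In *Sox2*-KO embryos most Hox differences were positive and few were called. In early ICM 0 decreased and 1 increased (1.91% and 0.238% of all peaks), and 66 of the 95 differences were positive, with a median of 0.26 against 0.05 over all peaks. Of all peaks with 10 or more CG, 63.4% were positive (median 0.12), against 69.5% of Hox peaks. The 1 was C11 at *Hoxc8*, with 0.486, 0.343, 0.211 and 0.273 in Ctrl and 2.28, 2.08, 1.73 and 1.43 in KO (1.55 ± 0.44; adjusted p = 0.0323 by limma), without overlap. KO lay wholly above Ctrl at 6 Hox peaks and at 2.21% of all peaks. C11 was called in 2 of the 8 fits that left out 1 library.

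In late ICM *Sox2*-KO increased 5 Hox peaks and decreased 0, where 2.71% of all peaks increased and 4.88% decreased. At an unadjusted p under 0.05, 19 Hox peaks rose and 0 fell, where 9.15% of all peaks rose and 9.92% fell. Every KO library lay above every Ctrl library at 14 of the 95 Hox peaks and below at 0, against 5.63% and 6.88% of all peaks. The median difference was 0.27 over Hox peaks, 0.01 over all peaks and 0.02 over all peaks with 10 or more CG. It was 0.38 in *Hoxa*, 0.08 in *Hoxb*, 0.23 in *Hoxc* and 0.42 in *Hoxd*.

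C14, in the coding exon of *Hoxc6*, a thoracic gene, was 2.19, 2.41, 1.52 and 2.08 in Ctrl and 3.18, 3.86, 3.61 and 3.65 in KO (1.53 ± 0.43; adjusted p = 0.0139 by limma). D11 was 3.73, 3.70, 2.89 and 1.66 in Ctrl and 4.45, 4.49, 4.14 and 4.91 in KO (1.50 ± 0.44; adjusted p = 0.0173 by limma). D9 was 3.27, 3.88, 3.46 and 2.76 in Ctrl and 4.61, 4.54, 4.13 and 4.92 in KO (1.20 ± 0.38; adjusted p = 0.0337 by limma). The groups did not overlap at any of these 3 peaks. With 1 library left out, C14 and D11 were each called in 6 of 8 fits and D9 in 2 of 8 (adjusted p up to 0.145 by limma), and D9 was lost after quantile normalization. C11 (1.35 ± 0.44) and B25, 3587 bp downstream of the *Hoxb5* start (1.43 ± 0.47), were the others, each called in 3 of 8 such fits. All 5 are nearest to paralog groups 1 to 8, where 46 of 56 differences were positive (median 0.43), against 19 of 39 for groups 9 to 13 (median −0.01), 51% of all peaks and 53% of all peaks with 10 or more CG. These groups were set after the calls were seen, and in *Sox2*-KO early ICM 40 of 56 and 26 of 39 were positive. At the 2 peaks that fell most in *Pou5f1*-KO, the late ICM difference in *Sox2*-KO was −0.07 ± 0.44 at C2 (adjusted p = 0.964 by limma) and −0.47 ± 0.42 at D15 (adjusted p = 0.615 by limma), neither of them called. The count of 5 fell to 1 without KO replicate 2, and to 2 or 3 without KO replicate 1 or Ctrl replicate 1, 3 or 4.

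**Figure D4:**
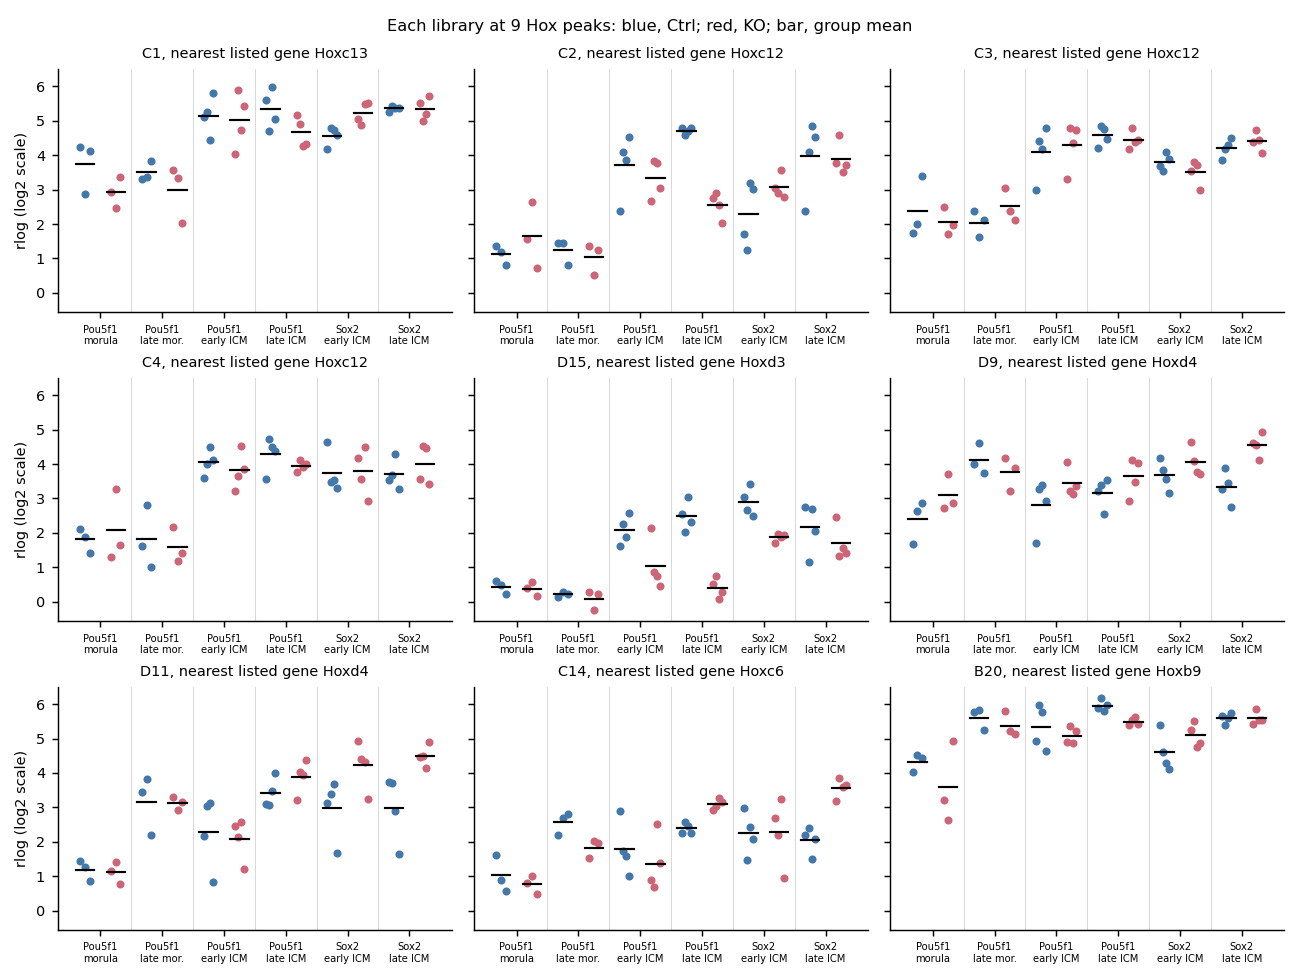
rlog (log2 scale) of each library at 9 Hox peaks, Ctrl in blue and KO in red, with a bar at each group mean. C1 to C4 step up between late morula and early ICM, C2 and D15 drop to means of 2.56 and 0.41 in *Pou5f1*-KO late ICM, and D9, D11 and C14 are highest in *Sox2*-KO late ICM, at means of 4.55, 4.496 and 3.58.

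The 2 knockout effects were compared directly, as the *Pou5f1*-KO difference minus the *Sox2*-KO difference in the same fit. These do not share controls. In early ICM 0 Hox peaks were called lower and 0 higher (0.68% of all peaks were called in either direction by limma, and 13 and 0 Hox peaks were lower and higher at an unadjusted p under 0.05, as were 6.81% and 5.26% of all peaks). In late ICM 75 of the 95 contrasts were negative, against 52.3% of all peaks, with a median of −0.47 against −0.04. All peaks with 10 or more CG had median differences of −0.25 in *Pou5f1*-KO and 0.02 in *Sox2*-KO late ICM, and their contrast was not computed. Of the Hox peaks, 2 were called lower and 0 higher (0.554% and 0.351% of all peaks). The 2 were D14, in a UTR of *Hoxd4* (−2.21 ± 0.58; adjusted p = 0.0355 by limma), and A5, in a *Hoxa3* intron (−2.16 ± 0.58; adjusted p = 0.0418 by limma). D14 had means of 1.46 and 0.265 in *Pou5f1* Ctrl and KO and of 0.183 and 1.20 in *Sox2* Ctrl and KO. A5 had means of 1.66 and 0.600 in *Pou5f1* Ctrl and KO and of 1.44 and 2.53 in *Sox2* Ctrl and KO. Both calls were lost after quantile normalization, and they were not refitted without single libraries. For C2 the contrast was −2.08 ± 0.62 (adjusted p = 0.0788 by limma) and for D15 −1.60 ± 0.59 (adjusted p = 0.189), so a difference between the knockouts was not shown at either.

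Other gene groups, taken as peaks within 10 kb of listed starts, are given beside these counts. Of all peaks, 14.7% rose and 15% fell from late morula to early ICM, 8.19% rose and 10.1% fell in *Pou5f1*-KO late ICM, and 2.71% rose and 4.88% fell in *Sox2*-KO late ICM. Other Polycomb-type developmental regulators, such as *Pax6* and *Lhx2*, had 67 peaks at 24 of 30 genes, with a median level of 2.49. From late morula to early ICM 17 of them rose (25.4%) and 2 fell (2.99%; median 0.68), in *Pou5f1*-KO late ICM 4 rose (5.97%) and 10 fell (14.9%; median −0.48), and in *Sox2*-KO late ICM 0 rose and 1 fell (median −0.09). Hox cofactors and upstream regulators, the *Pbx*, *Meis*, *Cdx*, *Gbx2* and *Rar* genes, had 53 peaks at 12 of 13 genes (median level 2.79), of which 14 rose (26.4%) and 2 fell (3.77%) into early ICM, 4 rose (7.55%) and 8 fell (15.1%) in *Pou5f1*-KO late ICM, and 1 rose and 2 fell in *Sox2*-KO late ICM. Polycomb and Trithorax subunits, which repress and maintain Hox genes, had 89 peaks at 19 of 19 genes (median level 3.36), with 17 up (19.1%) and 4 down (4.49%), 1 up (1.12%) and 14 down (15.7%), and 0 up and 2 down (2.25%) in these comparisons. Housekeeping genes had 50 peaks with a median level of 3.70, and their medians were −0.02, −0.03 and 0.10.

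Cell type markers are given for the same comparisons. From morula to late morula, 10 of 71 trophectoderm marker peaks rose and 1 fell (median 0.37), 3 of 65 epiblast peaks rose and 4 fell (median −0.003), and primitive endoderm peaks had a median of −0.0044, 9 of 20 being positive. Of all peaks, 3.65% rose and 2.79% fell there, and trophectoderm marker peaks 14.1% and 1.41%. From late morula to early ICM, 23 of 65 epiblast marker peaks rose and 2 fell (median 0.53), 6 of 20 primitive endoderm peaks rose and 0 fell (median 0.78), and 12 of 71 trophectoderm peaks rose and 16 fell (median −0.10). These are 35.4% and 3.08% of epiblast, 30% and 0% of primitive endoderm and 16.9% and 22.5% of trophectoderm peaks, beside 14.7% and 15% of all peaks. The share of trophectoderm peaks that rose was thus near that of all peaks, and the share that fell was above it. Over 65 peaks near 9 of 10 epiblast and naive pluripotency genes, such as *Nanog* and *Klf4* (*Esrrb* had none), the library means were 3.87 to 4.22 in *Pou5f1* Ctrl and 3.26 to 3.46 in KO late ICM, with 19 peaks down and 1 up (10.1% and 8.19% of all peaks). In *Sox2* late ICM they were 4.003 to 4.12 in Ctrl and 3.72 to 3.86 in KO, with 7 down and 2 up (4.88% and 2.71% of all peaks). Over 71 peaks near 10 of 10 trophectoderm genes, such as *Cdx2* and *Gata3*, they were 3.46 to 3.56 in *Sox2* Ctrl and 3.76 to 3.99 in KO, with 2 down and 4 up (2.82% and 5.63%), and 3.49 to 3.73 and 3.62 to 3.81 in *Pou5f1* Ctrl and KO. Over 20 peaks near 7 of 8 primitive endoderm genes (*Dab2* had none) they were 3.28 to 3.31 and 3.11 to 3.254 in *Sox2* Ctrl and KO, and 3.035 to 3.21 and 2.635 to 2.88 in *Pou5f1* Ctrl and KO. The part of cell composition in the Hox results was not tested, and in pools a change in some cells cannot be told apart from a smaller change in all.

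As a check of the labels, the peak at −480 bp from the *Sox2* start, between the loxP sites, was 2.35 to 3.28 in *Sox2* Ctrl and 0.489 to 1.05 in *Sox2*-KO late ICM. A second peak between the loxP sites, at 619 bp from the start, was 2.42 to 3.499 in Ctrl and 1.14 to 2.92 in KO. There the groups overlapped, so the first peak separated the labelled groups and the second did not. At *Pou5f1*, whose null allele carries cassettes upstream and in an intron, a peak at 3439 bp from the start was 2.04 to 2.998 in Ctrl and 2.17 to 3.45 in KO late ICM, so it did not separate the groups and checks nothing. Library medians over all peaks lay between 2.35 and 2.63, insertion counts and depth are unknown, and no library stood apart in these medians.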

How the data were processed

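The deposited table of the authors holds log2 values, the rlog of DESeq2, for 152393 peaks in 44 libraries, with group means that differed from the library means by at most 4.3e-08. Per the methods and labels, the authors trimmed reads with SeqPurge, aligned them to mm10 with Bowtie2, removed duplicates with Picard, kept unique reads, shifted ends to the Tn5 site, called peaks with MACS2, kept summits found in at least 2 replicates and counted insertions in 200 bp windows with BEDTools. No count model could be run.

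All peaks and 12 groups entered 1 limma 3.58.1 fit (R 4.3.3; lmFit, eBayes with trend, 32 residual degrees of freedom), two-sided, with Benjamini-Hochberg adjustment per comparison and calls at 0.05. The calling was tested on simulated data. Starts and exons came from GENCODE vM21, sequence from GRCm38, and scripts ran in Python 3.11.15. The Hox windows, gene lists and tests were chosen with earlier results of these data known.

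Named peaks were, per KO and stage comparison, up to 3 called decreases and 3 increases with the smallest adjusted p (for a KO comparison with none called, the peak with the smallest p), per window the 2 highest peaks and the one with the widest range of group means, and the 2 highest and the lowest of the peaks nearest to each gene within 1 kb of a start. D5, D12, D14, A5, A19, B2, B18, B25, C5, C6, D4 and D19, and peaks named for a motif, were named after their values were seen. The widest ranges were at A7 (2.56), B16 (3.18), C2 (3.67) and D11 (3.38). Same-numbered KO and Ctrl libraries deviated together (every r over 0.1) in *Pou5f1* late morula (0.109 to 0.192) and early ICM (0.121 to 0.162), and the replicate block left the counts there at 1 and 0.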

Additional observations from a re-analysis of the deposited data

Results flagged for a closer look

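*Pou5f1*-KO and *Sox2*-KO effects in late ICM differed at D14 (−2.21) and A5 (−2.16), by the test of the difference itself. Both calls were lost after quantile normalization, both peaks lie below the median level of all peaks (at percentiles 3.15 and 10.9 of mean rlog) and were left out where that filter was applied, and no fit without single libraries was made, so the difference is not firm. Single libraries stood apart by the Dixon ratio, the gap of the extreme library divided by the range of its group of 4, against its 95% critical value. Of 264 groups tested 8 passed it, where chance at 1 in 20 gives 13.2. For B16 the ratio was 0.951 in *Sox2*-KO early ICM (2.29 against 3.70 to 3.77) and 0.8985 in *Sox2* Ctrl late ICM (3.03 against 3.87 to 3.97). It was 0.858 for C18 in *Pou5f1* Ctrl early ICM (0.610 against 2.23 to 2.49), 0.8595 for C20 in *Sox2*-KO early ICM (0.242 against 2.52 to 2.90) and 0.8685 for D17 in *Sox2* Ctrl late ICM (0.503 against 1.19 to 1.29). In *Pou5f1*-KO late ICM it was 0.879 for D1 (2.23 against 3.59 to 3.77) and 0.836 for D3 (4.07 against 3.12 to 3.27). For the median of the *Hoxa* peaks it was 0.855 in *Pou5f1* Ctrl late ICM, with replicate 1 at 2.79 and the others at 3.31 to 3.40.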

How the results depend on the processing

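Of the alternative values 82 stayed within 1.5 times the reported count (or 1 SD, for a level), 5 were higher and 42 lower, and none reversed. With peaks below the median rlog of the table left out, 40 Hox peaks were tested and the counts were 0 (*Pou5f1*-KO late morula), 1 (*Pou5f1*-KO late ICM), 0 and 2 (*Sox2*-KO early and late ICM), 5 (morula to late morula), 0 (*Sox2* Ctrl early to late ICM) and 0 (difference between the knockouts in late ICM). Quantile normalization gave 0 for *Pou5f1*-KO late morula, 0 for *Sox2* Ctrl early to late ICM and 0 for the difference between the knockouts, and the cause was not tested. With only the libraries compared in the fit, *Sox2*-KO early ICM and *Sox2* Ctrl early to late ICM gave 0 and 0. With the replicate number as a block, *Sox2*-KO gave 2 in early and 8 in late ICM and *Sox2* Ctrl early to late ICM gave 0. It moved no other count by over 1.5 times. Outside *Pou5f1* late morula and early ICM, same-numbered libraries had correlations from −0.0248 to 0.293. In *Pou5f1* morula every KO library correlated best with its own number, and in the 3 other ICM comparisons most but not all did. The libraries may thus be paired there too, and the reported counts do not use such a pairing.

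Leaving out 1 library at a time gave 0 to 0 called Hox peaks for *Pou5f1*-KO late morula, 0 to 1 for early ICM and 4 to 10 for late ICM. It gave 0 to 2 for *Sox2*-KO early ICM, 1 to 5 for late ICM, 0 to 5 from morula to late morula, 17 to 23 from late morula to early ICM and 0 to 1 for *Sox2* Ctrl early to late ICM. For *Pou5f1*-KO late ICM the lowest counts were 4 without KO replicate 1 and 5 without Ctrl replicate 3. Depth is unknown, and the rlog shrinks weak peaks, so small differences at low peaks were not detectable here.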
